A study of Mus musculus with 10 samples.

Results

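Nucleophosmin (NPM1) and histone H3 trimethylated at lysine 4 (H3K4me3) were mapped in wild-type (WT) mouse cardiac macrophages isolated 3 days after myocardial infarction, and the ends of protein-coding genes were sorted by which of the 2 targets had a peak there. The 2 libraries, 1 per target, share cell type, genotype, injury and day, and were taken from a series of 10 libraries with 1 per group. Each of the 43774 ends of 21887 genes on assembled chromosomes of build mm10 was given a window of 1 kb on either side, and a peak that overlapped the window by 1 bp or more counted. Of these ends, 10501 carried both targets, 2473 NPM1 only, 3718 H3K4me3 only and 27082 neither. Both libraries were made by CUT&Tag, in which a transposase tethered to an antibody cuts and tags the DNA beside its target. The other groups used here for comparison were NPM1 in bone marrow-derived macrophages of WT mice grown for 7 days in 50 ng/ml M-CSF and given 20 ng/ml IL-4 for 12 hours, NPM1 in such macrophages left untreated, NPM1 in cardiac macrophages of WT mice 3 days after a sham operation, and H3K4me3 in cardiac macrophages of mice labelled NPM1 knockout, a conditional knockout (cKO), 3 days after infarction. The other 4 groups, all of IL-4-treated bone marrow-derived macrophages, were not used here. The driver of the conditional knockout, the strain, age and number of mice, and how the heart cells were isolated could not be learned from the sources used here.

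NPM1 is an abundant histone chaperone that shuttles between nucleolus, nucleoplasm and cytoplasm and is best known for its part in ribosome assembly. H3K4me3 is laid down by the SET1 and MLL methyltransferases of the COMPASS family and removed by the KDM5 demethylases, and it is found on nucleosomes flanking active promoters, above all those rich in CpG dinucleotides. Macrophages clear dead heart muscle in the days after an infarct and later take part in repair.

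Promoters of 8 genes are printed below because they show the 3 classes with a peak and the range of CpG content that goes with them. Each run is from the RefSeq promoter table (GRCm38.p6, the assembly of mm10) and covers 250 bases before and 50 after an annotated transcription start, 5′ to 3′ on the gene's own strand. Capitals mark CG dinucleotides.
Tsc1 (chr2:28640983-28641282, plus strand): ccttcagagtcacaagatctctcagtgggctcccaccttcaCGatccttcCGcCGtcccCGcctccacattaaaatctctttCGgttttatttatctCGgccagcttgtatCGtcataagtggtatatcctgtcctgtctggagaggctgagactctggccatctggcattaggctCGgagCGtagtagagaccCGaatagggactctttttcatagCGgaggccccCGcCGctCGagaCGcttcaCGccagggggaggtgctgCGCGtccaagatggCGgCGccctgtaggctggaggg
Anxa5 (chr3:36475838-36476137, minus strand): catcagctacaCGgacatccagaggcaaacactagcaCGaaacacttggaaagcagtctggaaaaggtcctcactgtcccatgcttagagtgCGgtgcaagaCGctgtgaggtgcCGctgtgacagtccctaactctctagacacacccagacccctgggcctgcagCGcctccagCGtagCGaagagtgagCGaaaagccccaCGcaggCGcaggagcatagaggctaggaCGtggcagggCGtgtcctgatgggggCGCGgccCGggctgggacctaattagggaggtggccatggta
Phf20 (chr2:156196397-156196696, plus strand): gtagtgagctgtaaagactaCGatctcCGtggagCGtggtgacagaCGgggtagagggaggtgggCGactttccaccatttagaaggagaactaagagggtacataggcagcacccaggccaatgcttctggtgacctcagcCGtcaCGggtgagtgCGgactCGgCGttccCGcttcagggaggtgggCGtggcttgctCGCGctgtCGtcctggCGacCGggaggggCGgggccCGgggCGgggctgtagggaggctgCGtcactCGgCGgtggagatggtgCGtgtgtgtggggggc
Hpgds (chr6:65144681-65144980, minus strand): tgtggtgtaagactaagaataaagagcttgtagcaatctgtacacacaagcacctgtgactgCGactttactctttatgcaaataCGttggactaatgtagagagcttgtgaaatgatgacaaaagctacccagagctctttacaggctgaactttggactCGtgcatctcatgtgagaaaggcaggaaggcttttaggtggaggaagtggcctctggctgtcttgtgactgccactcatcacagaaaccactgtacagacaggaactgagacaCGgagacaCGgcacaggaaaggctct
Nyx (chrX:13460840-13461139, plus strand): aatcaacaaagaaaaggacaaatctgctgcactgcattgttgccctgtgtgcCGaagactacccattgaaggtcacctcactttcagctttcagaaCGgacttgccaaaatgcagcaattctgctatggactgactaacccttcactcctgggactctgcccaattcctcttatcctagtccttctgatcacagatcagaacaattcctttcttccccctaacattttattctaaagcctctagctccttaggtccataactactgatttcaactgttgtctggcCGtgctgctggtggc
Kdm5b (chr1:134559928-134560227, plus strand): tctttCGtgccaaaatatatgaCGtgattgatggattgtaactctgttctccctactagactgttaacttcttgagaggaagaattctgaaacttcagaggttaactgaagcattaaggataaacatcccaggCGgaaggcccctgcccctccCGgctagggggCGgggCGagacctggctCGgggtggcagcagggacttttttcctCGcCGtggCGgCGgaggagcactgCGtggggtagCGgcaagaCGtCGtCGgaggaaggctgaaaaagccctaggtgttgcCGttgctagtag
Rpa3 (chr6:8259092-8259391, minus strand): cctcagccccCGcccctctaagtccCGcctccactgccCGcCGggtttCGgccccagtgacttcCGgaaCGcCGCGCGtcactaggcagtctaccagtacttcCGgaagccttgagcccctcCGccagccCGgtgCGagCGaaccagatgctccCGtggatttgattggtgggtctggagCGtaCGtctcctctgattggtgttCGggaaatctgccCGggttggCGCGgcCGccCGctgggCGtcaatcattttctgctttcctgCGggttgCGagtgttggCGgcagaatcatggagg
Mbip (chr12:56345845-56346144, minus strand): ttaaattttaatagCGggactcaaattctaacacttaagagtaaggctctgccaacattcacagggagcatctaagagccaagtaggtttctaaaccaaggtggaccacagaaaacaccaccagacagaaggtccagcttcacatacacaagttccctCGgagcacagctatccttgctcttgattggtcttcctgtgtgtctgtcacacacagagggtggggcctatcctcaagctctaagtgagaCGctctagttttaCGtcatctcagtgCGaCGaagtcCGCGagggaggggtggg
Tsc1, Anxa5 and Phf20 carried both targets, Hpgds and Nyx NPM1 only, and Kdm5b, Rpa3 and Mbip H3K4me3 only. The runs hold 20, 16 and 24 CG dinucleotides in Tsc1, Anxa5 and Phf20, 5 in Hpgds and 3 in Nyx, and 17, 28 and 8 in Kdm5b, Rpa3 and Mbip. In the printed Tsc1 run the NPM1 summit falls on base 147 and the H3K4me3 summit on base 289, counted from 1 at the 5′ end. The H3K4me3 summits of Kdm5b, Rpa3 and Mbip fall on bases 283, 113 and 167 of their runs. The NPM1 summit of Hpgds lies 94 bases before its run begins, and that of Nyx lies 607 bases past its end.

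The NPM1 list held 79893 peaks and the H3K4me3 list 73321, with median widths of 311 bp and 290 bp. The pileup most often found as background, read from the deposited peak values, was 3.03 in the NPM1 list and 2.92 in the H3K4me3 list, so the 2 lists have similar depth. The other lists differ more, with backgrounds of 4.18 for NPM1 after IL-4, 1.31 for untreated NPM1, 1.29 for sham NPM1 and 2.49 for knockout H3K4me3. Of the peaks, 27.6% in the NPM1 list and 12.6% in the H3K4me3 list had a q above 0.05. There was 1 library per target, so differences could not be set against replicates and were not tested. Where an end is said to lack a target, no peak was called at the depth of that library. Peaks of separate libraries come from many cells, so a shared gene end does not show that both targets sat on the same chromosome copy or in the same cell. Macrophage identity was checked on 27 markers. All of them had a peak of at least 1 target, and 22 had both, while 37.6% of all genes had neither and 44.2% had both. This check is not specific to macrophages, since of 20 housekeeping genes 17 had both and 1 had neither. Of 20 genes that mark resident or recruited cardiac macrophages, 9 had neither.

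The ends that carried both targets made up 24.0% of all ends, those with NPM1 only 5.65%, those with H3K4me3 only 8.49% and those with neither 61.9%. Counted by gene, 9669 genes (44.2%) carried both at 1 end or more, of which 832 did so at both ends. A further 236 genes (1.08%) had the 2 targets at opposite ends, 1167 (5.33%) had NPM1 only, 2596 (11.9%) had H3K4me3 only and 8219 (37.6%) had neither. The ends with NPM1 and the ends with H3K4me3 thus largely overlapped. H3K4me3 was found at 80.9% of ends with NPM1 and at 12.1% of ends without it. NPM1 was found at 73.9% of ends with H3K4me3 and at 8.37% of ends without it.

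The strand was known for 17492 genes, which separates the end where transcription starts from the far end. At start ends 7451 (42.6%) carried both, 642 NPM1 only, 2050 H3K4me3 only and 7349 neither. At far ends 1104 carried both, 1270 NPM1 only, 906 H3K4me3 only and 14212 neither. Among the occupied classes, NPM1 only was the one that held more far ends than start ends. Among start ends with NPM1, 92.1% also had H3K4me3, against 46.5% of far ends with NPM1. Among start ends with H3K4me3, 78.4% also had NPM1, against 54.9% of far ends with H3K4me3. The limit of the window cuts through a smooth fringe. Widening it from 900 to 1000 bp added 367 ends with NPM1 and 326 with H3K4me3, and widening it from 1000 to 1100 bp added 394 ends with NPM1 and 303 with H3K4me3.

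**Figure D1:**
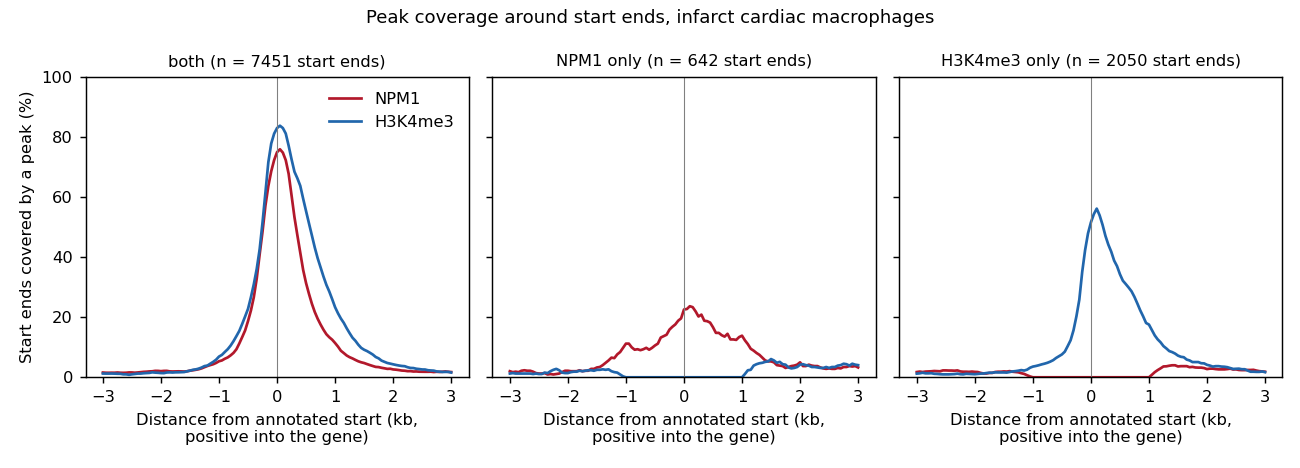
Share of start ends covered by a peak (y axis, percent) against distance from the annotated start (x axis, kb, positive into the gene, in steps of 50 bp), for NPM1 (red) and H3K4me3 (blue), by class of the end. At ends with both targets the curves peak at 50 bp inside the gene, at 76.0% for NPM1 and 83.8% for H3K4me3; the flat stretches at 0 in the other panels follow from the class rule.

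At start ends with both targets, the plot of coverage around the start shows 2 curves with a common maximum 50 bp inside the gene, where NPM1 peaks covered 76.0% of ends and H3K4me3 peaks 83.8%. Within 1 kb of the start the H3K4me3 curve lay above that of NPM1 on both sides, and by more inside the gene. At 2000 bp upstream the order was the other way, with 2.04% for NPM1 and 1.41% for H3K4me3. At 500 bp upstream NPM1 peaks covered 18.7% of ends and H3K4me3 peaks 22.8%, and at 500 bp into the gene NPM1 covered 31.4% and H3K4me3 55.4%. At ends with NPM1 only the curve was low and broad, with a maximum of 23.7% at 100 bp. At ends with H3K4me3 only the maximum was 56.2%, also at 100 bp. The median NPM1 summit lay 42 bp inside the gene at ends with both and 105.5 bp at ends with NPM1 only. Of these summits, 61.3% lay within 200 bp of the start at ends with both, against 25.1% at ends with NPM1 only. The median H3K4me3 summit lay 38 bp inside the gene at ends with both, where 59.7% lay within 200 bp of the start. At ends with H3K4me3 only it lay 147 bp inside, with 44.1% within 200 bp.

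Peaks at ends with both targets were stronger and wider than peaks that stood alone. The fold enrichment is the authors' own value, the enrichment of the summit over background reads nearby, and it and q are given per list. NPM1 peaks had a median fold of 4.31, a median −log10 q of 6.79 and a median width of 590 bp at ends with both. At ends with NPM1 only these were 2.81, 1.61 and 290 bp, and 166 of the 2473 ends had a −log10 q of 5 or more. H3K4me3 peaks had a median fold of 5.22, a median −log10 q of 11.9 and a median width of 751 bp at ends with both. At ends with H3K4me3 only these were 3.36, 2.97 and 336 bp, and 1171 of the 3718 ends reached a −log10 q of 5. The class of ends with NPM1 only is therefore mostly made of weak peaks, and that of H3K4me3 only holds a larger share of strong ones. Of the 6462 ends whose NPM1 peak reached a −log10 q of 5, 97.4% had an H3K4me3 peak. Of the 9862 ends whose H3K4me3 peak did so, 88.1% had an NPM1 peak.

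**Figure D2:**
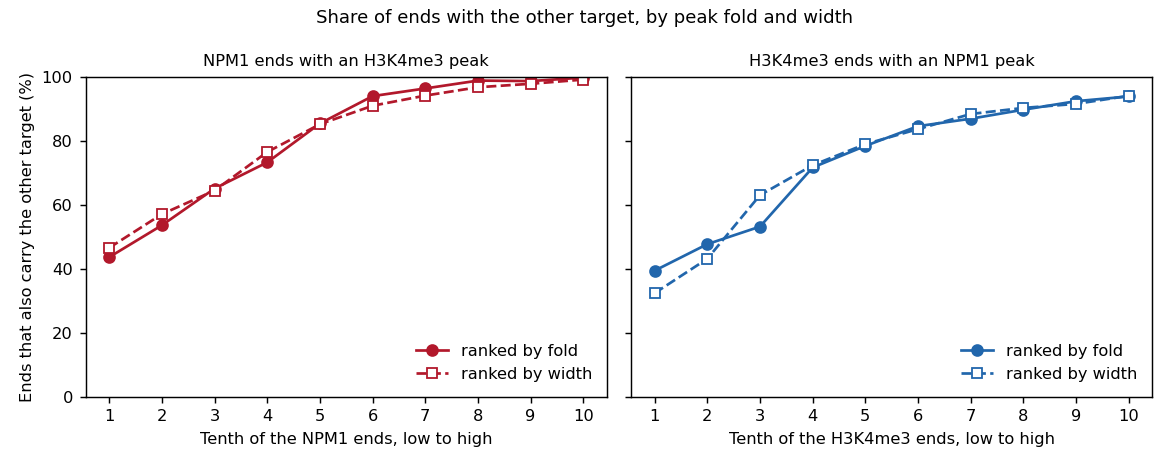
Share of ends that also carried the other target (y axis, percent) by bin of fold (filled circles) or width (open squares), 10 bins of nearly equal size, of the target named in the panel title (x axis, low to high), for all ends with NPM1 (left) and all ends with H3K4me3 (right). By fold, the share with the other target is 43.7% in the lowest and 99.8% in the highest NPM1 bin, and 39.5% in the lowest and 94.0% in the highest H3K4me3 bin.

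The plot of shares by fold and width, in 10 bins of nearly equal size, shows the same in steps. H3K4me3 was present at 43.7% of the ends in the lowest bin of NPM1 fold, at 85.5% in the fifth and at 99.8% in the highest. NPM1 was present at 39.5% of the ends in the lowest bin of H3K4me3 fold, at 78.5% in the fifth and at 94.0% in the highest. Ranking by width gave much the same curves, with 99.2% of the widest NPM1 bin carrying H3K4me3 and 94.2% of the widest H3K4me3 bin carrying NPM1. The H3K4me3 curve thus levels off below that of NPM1, with an NPM1 peak at 1336 of the 1422 ends in its highest bin by fold. Across the 10501 ends with both, the folds of the 2 targets were related with a Spearman rho of 0.522 and the widths with one of 0.469. These describe ends of 1 pair of libraries, which share local background and mappability.

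The summits of the 2 targets lay close together. Per end, the NPM1 and the H3K4me3 peak of highest fold were compared, and the median distance between their summits was 110 bp, with quartiles of 43 and 210 bp. The distance was at most 50 bp at 28.2% of ends, at most 100 bp at 46.9% and at most 200 bp at 74.3%. It was over 500 bp at 1207 ends (11.5%), and at 232 ends both summits fell on the same base. Signed so that a positive value places NPM1 further into the gene, the median offset at start ends was -5 bp. NPM1 lay upstream of H3K4me3 at 52.9% of start ends and downstream at 44.8%. The offset at far ends was similar in size, with a median distance of 115 bp against 108 bp at start ends. As a yardstick, NPM1 summits of the infarct and the IL-4 list lay a median of 78 bp apart at their 10372 shared ends. H3K4me3 summits of the knockout and the WT infarct list lay 92 bp apart at 12615 ends. NPM1 summits of the infarct and the shallower sham list lay 166 bp apart at the 1197 ends they share. The distance of 110 bp between NPM1 and H3K4me3 was thus larger than in the IL-4 and the knockout pair. Of these same-target pairs, it was smaller only than in the pair with the sham list. NPM1 summits of the IL-4 list, from other cells, lay a median of 107 bp from those of WT infarct H3K4me3, at 10353 shared ends. The distance of 110 bp is thus not particular to the 2 libraries that share cells and injury. The sham list gave a larger distance. Summits of that shallow list lay a median of 156 bp from those of WT infarct H3K4me3, at 1182 shared ends.

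**Figure D3:**
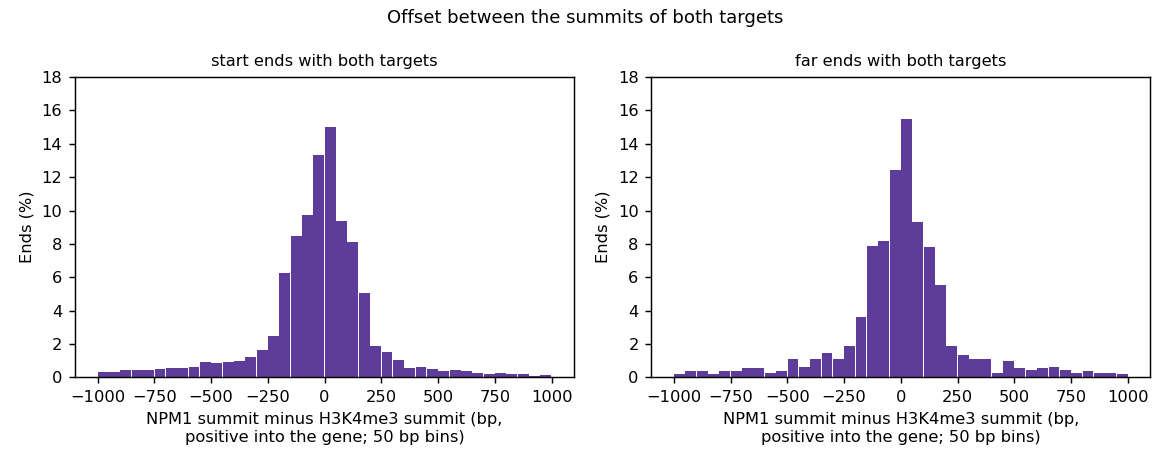
Distribution of the offset (x axis, NPM1 summit minus H3K4me3 summit in bp, positive into the gene, bins of 50 bp, shown to 1000 bp on either side) as a share of ends with both targets (y axis, percent), at start ends (left, n = 7451) and far ends (right, n = 1104). The highest bin in both panels is that of 0 to 50 bp, with 1120 of the start ends and 171 of the far ends.

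The plot of offsets has a single hump around 0 at start ends and at far ends. It falls off steeply past 200 bp on either side. The bin of -200 to -150 bp held 6.27% of start ends and that of -250 to -200 bp 2.47%, and the bin of 150 to 200 bp held 5.05% and that of 200 to 250 bp 1.88%. The NPM1 summit lay inside an H3K4me3 peak at 91.7% of ends with both, namely at 94.2% of start ends and at 77.4% of far ends. The H3K4me3 summit lay inside an NPM1 peak at 86.7%. The 2 peaks overlapped at 92.0% of ends. The NPM1 peak lay wholly inside the H3K4me3 peak at 40.5%, and the H3K4me3 peak lay wholly inside the NPM1 peak at 12.9%.

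The largest offsets among ends with strong peaks of both targets were at genes where the highest-fold peaks of the 2 lists had summits on different sides of the start. At the start of Alyref2, a paralog of the mRNA export adaptor Alyref, NPM1 peaked 2492 bp outward of H3K4me3, with folds of 4.59 for NPM1 and 4.36 for H3K4me3. At the start of Rheb, the small GTPase that activates mTORC1, the NPM1 peak chr5:24842007-24843373 lay over the start. The H3K4me3 peak of higher fold, chr5:24840375-24841510, lay inside the gene, with its summit 2385 bp away. It was 1 of 2 H3K4me3 peaks there, which together covered 1343 bp of the window. Cfl1, which encodes the actin-severing protein cofilin, had an offset of 2065 bp in the same outward direction. Duxf3, a member of the repeated Dux family whose reads may be split among near-identical copies, had NPM1 2155 bp inward of H3K4me3. At each of these genes several peaks of a target touched the window. There were 3 of NPM1 at Alyref2, 2 of H3K4me3 at Rheb, and 2 of each target at Cfl1 and Duxf3. These offsets therefore depend on taking the peak of highest fold.

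NPM1 peaks were mostly the narrower ones. The median width was 590 bp for NPM1 and 751 bp for H3K4me3 at ends with both, and the median of the width ratio, NPM1 over H3K4me3, was 0.829. NPM1 was narrower at 7101 ends (67.6%), wider at 3341 and equal at 59. The covered bases within the window, which add up all peaks there, had medians of 597 bp for NPM1 and 831 bp for H3K4me3. The ratio was 0.811 at start ends and 1.0 at far ends. Between lists of the same target the ratio was 1.0 for infarct over IL-4 NPM1, 1.64 for infarct over sham NPM1 and 1.86 for knockout over WT infarct H3K4me3. For NPM1 of the IL-4 list over WT infarct H3K4me3 it was 0.834, near that of the matched pair, and for NPM1 of the sham list 0.649. Widths of called peaks move with depth and enrichment of a library, so the size of the ratio cannot be told apart from such differences.

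**Figure D4:**
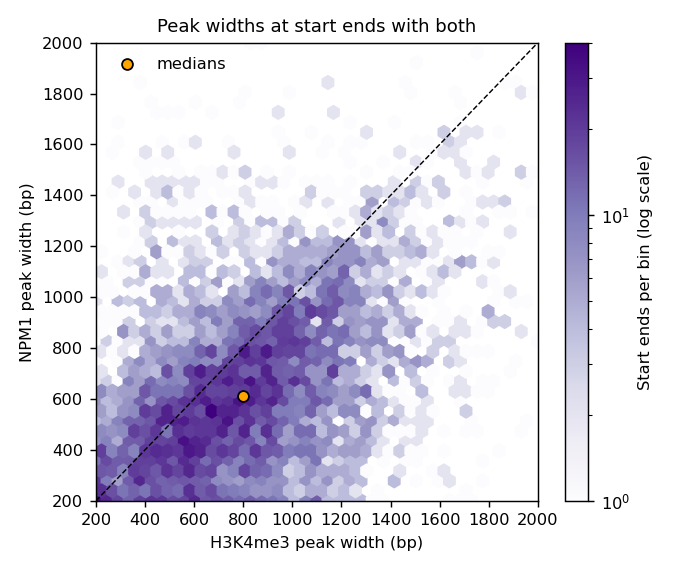
NPM1 peak width (y axis, bp) against H3K4me3 peak width (x axis, bp) at the 7451 start ends with both targets, as the number of ends per hexagonal bin (colour, log scale); the dashed line marks equal widths, and 26 ends past 2000 bp are not shown. The medians (orange point) are 613 bp for NPM1 and 798 bp for H3K4me3, and 5252 of the ends lie on the side where NPM1 is narrower.

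In the plot of widths at start ends, most of the mass lies on the side of the wider H3K4me3 peak, and 5252 of 7451 ends had the narrower NPM1 peak. The highest ratios among strong peaks belonged to Crtc2, a coactivator of CREB, with an NPM1 peak of 1758 bp over an H3K4me3 peak of 268 bp (ratio 6.56), and to Zfp91, a zinc finger protein, with widths of 1603 bp for NPM1 and 282 bp for H3K4me3 (ratio 5.68). Sirt4, a mitochondrial sirtuin, followed with 5.49 and the myeloid tyrosine kinase gene Fes with 4.97. NPM1 had 1 peak in the window at each of these 4 genes. H3K4me3 had 1 peak at Crtc2 and Sirt4, and 3 separate peaks at Zfp91 and 2 at Fes, of which the one with the highest fold was taken. The lowest ratios belonged to Atg2b, a lipid transfer protein of autophagosome growth, with an NPM1 peak of 265 bp in an H3K4me3 peak of 1630 bp (ratio 0.163), to Ahcy, the enzyme that breaks down S-adenosylhomocysteine (0.187), to the interferon-induced gene Ifitm3 (0.193) and to Mapk1ip1 (0.200).

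Most ends with both had 1 peak of each target in the window, namely 6795 of 10501. At 2122 ends 1 NPM1 peak faced 2 H3K4me3 peaks, and at 624 ends 2 NPM1 peaks faced 1 H3K4me3 peak. The 2 H3K4me3 peaks were separated by a median gap of 251.5 bp. At 49.4% of these 2122 ends the NPM1 summit lay between the H3K4me3 summits, at 22.3% the NPM1 peak spanned the gap, and at 2.92% the NPM1 summit lay in the gap itself. The NPM1 summit lay inside one of the 2 H3K4me3 peaks at 94.0% of these ends, and outside both peaks and the gap at 3.11%.

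The genes with the best combined rank in both lists fall into 2 sorts. Wls, which carries Wnt ligands to the cell surface, had a fold of 42.4 for NPM1 and 41.0 for H3K4me3 just beyond its far end, at peaks chr3:159939293-159939773 and chr3:159939300-159939786. The other 4 lists had a peak at the same end, with folds of 41.6 to 42.7. Lars2, the mitochondrial leucyl-tRNA synthetase, Asmt, the last enzyme of melatonin synthesis, and Sspn, a part of the dystrophin complex, likewise had a peak in all 6 lists. Their folds were 27.9, 15.8 and 15.6 for NPM1 and 15.1, 15.4 and 13.2 for H3K4me3, with summits at most 20 bp apart. These peaks recur whatever the antibody, cell or genotype. A peak in all 6 lists was found at 160 ends, 1.52% of the ends with both.

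The next genes had strong peaks of both targets and weak or no peaks in the 2 shallower NPM1 lists. Anxa5, which encodes the phosphatidylserine-binding annexin A5, had folds of 10.1 for NPM1 and 9.66 for H3K4me3 at its start, with widths of 939 bp for NPM1 and 665 bp for H3K4me3, and summits 36 bp apart. Phf20, a subunit of histone acetyltransferase complexes, had folds of 9.79 for NPM1 and 10.9 for H3K4me3 in peaks of 950 bp for NPM1 and 971 bp for H3K4me3. Adss, an enzyme of AMP synthesis, had folds of 12.2 for NPM1 and 8.83 for H3K4me3. At Anxa5, Phf20 and Adss the IL-4 NPM1 list (folds of 10.3, 9.70 and 11.5) and the knockout H3K4me3 list (9.39, 11.4 and 8.89) had peaks of like fold. The sham NPM1 list had a weak peak at Anxa5, with a fold of 3.50, and none at Phf20 and Adss. The orphan nuclear receptor gene Nr2c2 (12.2 for NPM1 and 9.68 for H3K4me3), the homeobox gene Pknox1 (11.3 for NPM1 and 8.25 for H3K4me3) and the membrane protein gene Gpr155 (12.2 for NPM1 and 10.9 for H3K4me3) complete the set.

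NPM1 without H3K4me3 was found for 506 genes with no H3K4me3 peak within 5 kb of either end. The strongest was Hpgds, the prostaglandin D synthase of blood cells, with a fold of 6.67 in a peak of 914 bp over its start. Prm1 and Prm2, the protamines that pack sperm DNA, had folds of 5.89 and 4.65. These genes are short. The Prm1 peak covered the whole gene with its start, and the Prm2 peak lay over the far end and also within 1 kb of the start. Treml4, a receptor of myeloid cells, had 6.27 at its far end, and Cyp8b1, a bile acid hydroxylase, had 4.36. Orm1, an acute-phase plasma protein, had 4.35, and Nyx, a retinal protein, and Tcerg1l each had 4.96. Several of these ends did carry H3K4me3 in the knockout list, with folds of 7.35 at Hpgds, 7.07 at Treml4, 4.52 at Cyp8b1, 3.44 at Orm1 and 9.69 at Nyx. No knockout H3K4me3 peak was listed at Prm1, Prm2 and Tcerg1l. NPM1 had a peak in the IL-4 list at each of the 8 except Tcerg1l. Over the 571 ends of such genes, 30.3% had a knockout H3K4me3 peak, against 36.1% of all ends, and 39.9% an IL-4 NPM1 peak, against 30.1% of all ends.

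H3K4me3 without NPM1 was found for 1295 genes with no NPM1 peak within 5 kb of either end, and the strongest were all at start ends. Mbip, a subunit of the ATAC acetyltransferase complex, had an H3K4me3 fold of 10.8 in a peak of 774 bp, and Rpa3, the small subunit of the single-strand binding protein RPA, had 9.63 in a peak of 1113 bp. The zinc finger gene Zfp758 had 9.24, and C1d, a cofactor of the nuclear exosome, had 9.07. Mrps17, a protein of the mitochondrial ribosome, had 8.25, AU041133 had 10.4 and Ccdc127 had 8.91. Mfap1b had 9.0, and because its near-identical copy Mfap1a lies in the same genome its reads may be split between them. The knockout H3K4me3 list had higher folds at all 8, between 11.1 at Rpa3 and 18.3 at Mbip. The IL-4 NPM1 list had weak peaks at 5 of the 8, with folds of 2.51 at Mbip and AU041133, 3.09 at Zfp758, 3.67 at Rpa3 and 3.86 at Mrps17. Over the 1411 ends of such genes, 73.4% had a knockout H3K4me3 peak, against 36.1% of all ends, and 23.5% an IL-4 NPM1 peak, against 30.1% of all ends.

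The study's own genes fell into different classes. Npm1 itself carried both targets at one end, with a fold of 7.14 for NPM1 and 7.60 for H3K4me3, widths of 833 bp for NPM1 and 677 bp for H3K4me3, and an offset of -125 bp. The knockout H3K4me3 list had a peak there too, with a fold of 7.97, and this mark does not check the deletion. Kdm5b, a demethylase of H3K4me3, had H3K4me3 only, with a fold of 3.98, a −log10 q of 7.35 and a width of 1058 bp at chr1:134560038-134561095. Neither the IL-4, the sham nor the untreated NPM1 list had a peak there, and the knockout H3K4me3 list had one with a fold of 4.48. Tsc1, a subunit of the complex that restrains mTORC1, carried both at its start, with folds of 6.17 for NPM1 and 4.26 for H3K4me3, widths of 1065 bp for NPM1 and 1236 bp for H3K4me3, and an offset of -142 bp. Tsc2, its partner, had H3K4me3 only at its start, with a fold of 3.89. Its far end carried weak peaks of both, with folds of 2.65 for NPM1 and 2.55 for H3K4me3. Mtor, the kinase of the pathway, had both at its start, with folds of 3.68 for NPM1 and 4.86 for H3K4me3, widths of 526 bp for NPM1 and 995 bp for H3K4me3, and summits 2 bp apart, and H3K4me3 only at its far end, with a fold of 6.43.

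Genes were next grouped into 25 lists and 15 families, read against the 44.2% of all genes that carried both. Of the 31 genes of mTORC1 and TSC signalling, 30 carried both, and the X-linked Ragulator-bound GTPase gene Rragb had neither. At 18 of the 31 both peaks reached a −log10 q of 5, as they did at 25.9% of all genes. Of 20 housekeeping genes 17 carried both, and 12 did so at that strength, so the share of strong ends in this list was no higher than theirs. Tsc2 counted only through the weak peaks at its far end. Rragc, another Rag GTPase, had folds of 7.61 for NPM1 and 6.41 for H3K4me3, and Mlst8, a subunit of both mTOR complexes, had 5.83 for NPM1 and 7.19 for H3K4me3. The lysosomal scaffold gene Lamtor2 had 5.51 for NPM1 and 5.85 for H3K4me3, with an NPM1 peak of 1168 bp over an H3K4me3 peak of 437 bp. The median offset in this list was 141 bp and the median width ratio 0.856, against 109 bp and 0.820 over all genes with both.

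In the list of H3K4 methyltransferases and COMPASS, 15 of 18 genes carried both. Kmt2a, the MLL methyltransferase, had folds of 9.22 for NPM1 and 5.38 for H3K4me3, and Wdr5, a core subunit, had 4.48 for NPM1 and 5.42 for H3K4me3. Kdm6a, a demethylase of H3K27 in the KMT2C and KMT2D complexes, had H3K4me3 only, and the core subunit genes Ash2l and Dpy30 had neither. Of 8 genes listed as H3K4 demethylases, 6 carried both. That list holds KDM1 and KDM2 genes beside those of the KDM5 demethylases that remove H3K4me3. Kdm1b led with 11.2 for NPM1 and 6.86 for H3K4me3, Kdm5a had 4.04 for NPM1 and 4.17 for H3K4me3, Kdm5b had H3K4me3 only, and the Y-linked Kdm5d had neither. 

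Genes of NPM1's own functions mostly carried both, but not more so than other widely expressed genes. Both were found at 85% of housekeeping, 95% of cell cycle and 95.2% of heat shock genes. Of 23 genes of nucleophosmins and histone chaperones, 21 carried both, among them Anp32b (6.85 for NPM1 and 7.99 for H3K4me3), Nap1l4 (6.84 for NPM1 and 7.74 for H3K4me3) and the nucleolar protein gene Ncl (6.84 for NPM1 and 6.36 for H3K4me3). Set had H3K4me3 only, and the oocyte gene Npm2 had neither. Of 25 ribosome biogenesis genes, 21 carried both, with Gnl3 at 7.53 for NPM1 and 10.6 for H3K4me3 and Nop56 at 7.94 for NPM1 and 8.64 for H3K4me3. The median offset was 53 bp in the chaperone list and 57 bp in the biogenesis list, against 109 bp over all genes with both. It was 51.5 bp in the fatty acid oxidation list and 94 bp in the housekeeping list. Of 32 cytosolic ribosomal protein genes, 27 carried both and 3 had the targets at opposite ends.

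Metabolic lists were covered to a like degree. Of 15 genes of fatty acid oxidation 14 carried both, with Acadm, a dehydrogenase of medium-chain fatty acids, at 9.25 for NPM1 and 11.4 for H3K4me3, and Hadh had H3K4me3 only. Of 22 genes of the TCA cycle and oxidative phosphorylation 19 carried both, with citrate synthase, Cs, at 7.99 for NPM1 and 7.74 for H3K4me3. Sdha and Dlst had H3K4me3 only, with folds of 8.91 and 5.92, so strong H3K4me3 was found there with no NPM1 peak called. Of 21 glycolysis genes 17 carried both, with the enolase gene Eno1 at 7.30 for NPM1 and 6.81 for H3K4me3. Ldha, Hk1 and Aldoa had neither at the ends of their annotated extent, which misses promoters inside a gene.

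Among the lists with 15 or more genes that carried both, NPM1 had the higher median fold in 6, namely heat shock proteins, glycolysis, lysosome and phagocytosis, housekeeping, inflammatory and macrophage identity genes. In heat shock proteins, where 20 of 21 carried both, the median fold was 6.53 for NPM1 and 4.94 for H3K4me3. Hspa8, the constitutive chaperone of the HSP70 family, had 8.72 for NPM1 and 5.49 for H3K4me3, and Hsp90b1, the HSP90 chaperone of the endoplasmic reticulum, had 8.45 for NPM1 and 7.01 for H3K4me3. In glycolysis the medians were 5.60 for NPM1 and 4.58 for H3K4me3, in lysosome and phagocytosis 5.62 for NPM1 and 4.63 for H3K4me3, and in housekeeping genes 5.41 for NPM1 and 4.63 for H3K4me3. Over all genes with both, the order was the other way, with medians of 4.46 for NPM1 and 5.35 for H3K4me3. Npc2, a lysosomal cholesterol carrier, had 10.4 for NPM1 and 4.87 for H3K4me3, and Lipa, the lysosomal acid lipase, had 7.02 for NPM1 and 10.6 for H3K4me3. In cell cycle and replication, where 19 of 20 carried both, the medians were 4.09 for NPM1 and 5.95 for H3K4me3, and the kinase gene Wee1 had 13.6 for NPM1 and 6.06 for H3K4me3.

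**Figure D5:**
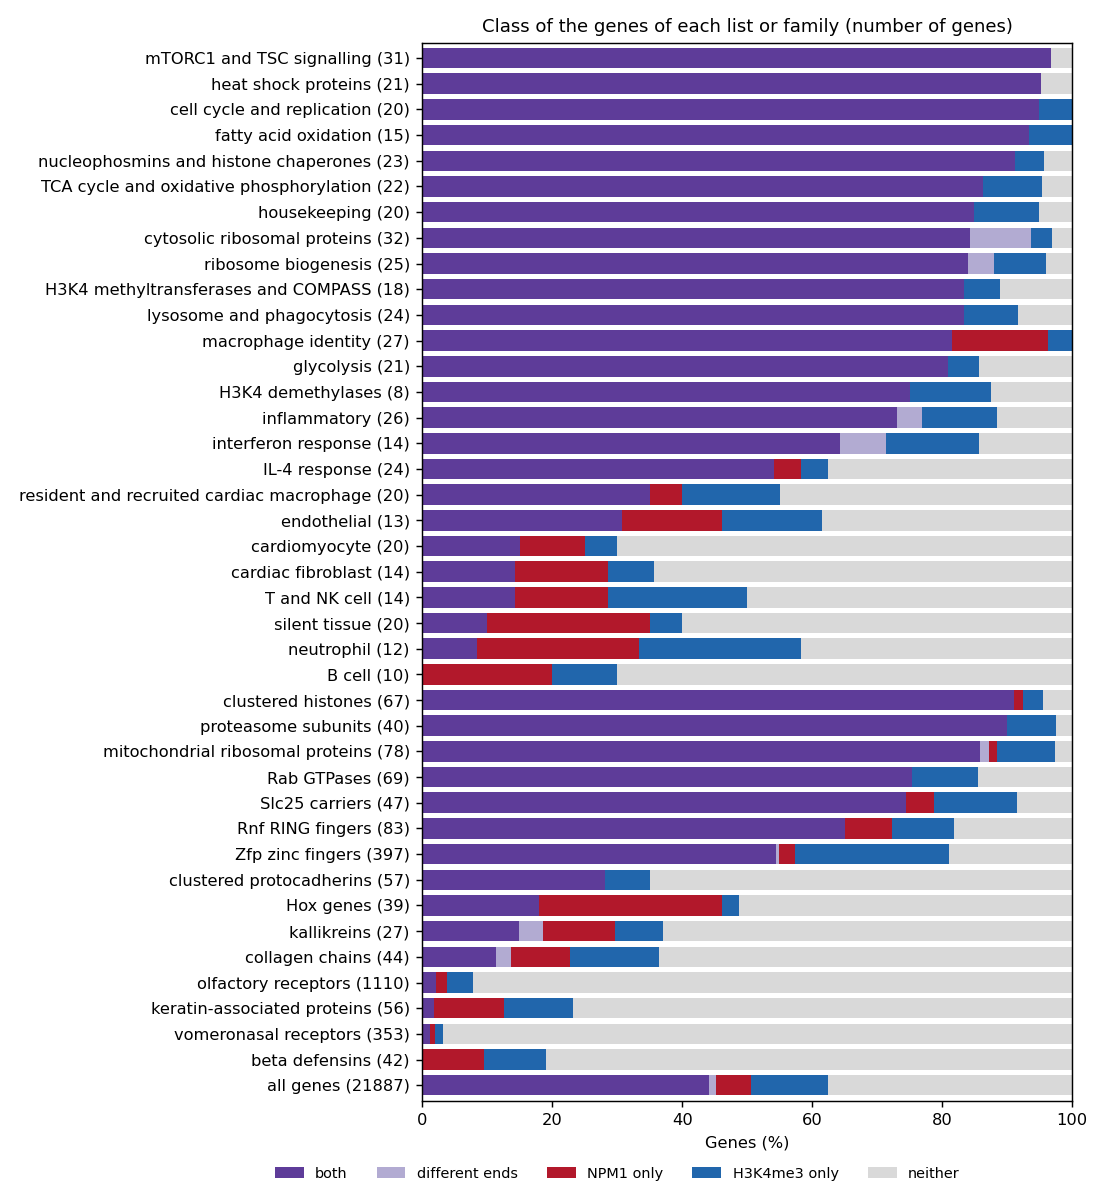
Share of the genes of each list or family (y axis, with the number of genes) in each class (x axis, percent), with all 21887 genes in the lowest bar. The share with both is 96.8% for mTORC1 and TSC signalling, 81.5% for macrophage identity and 2.07% for olfactory receptors, against 44.2% of all genes. It is 85% for housekeeping genes. A gene counts as both through either end and with peaks of any strength.

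Immune lists were less uniform, as the plot of classes by list shows. Of 27 macrophage identity genes, 22 carried both, 4 had NPM1 only and 1, Aif1, had H3K4me3 only. Ctsb, a lysosomal protease, had folds of 5.63 for NPM1 and 5.26 for H3K4me3, the adaptor gene Tyrobp had 4.83 for NPM1 and 5.40 for H3K4me3, and the scavenger receptor gene Cd68 had 4.18 for NPM1 and 3.72 for H3K4me3. The genes with NPM1 only were C1qb, Cx3cr1, Ctss and Itgam, with folds of 2.62 to 3.68. The median width ratio in this list was 1.27, with median widths of 722.5 bp for NPM1 and 590 bp for H3K4me3, so the order of widths was turned round relative to all genes. This is not particular to the list. The ratio was 1.65 in the resident and recruited list, 1.80 in the endothelial list and 0.979 in the housekeeping list. It rests on the highest-fold peak per end. Cebpa, a transcription factor of the monocyte lineage picked here after its values were seen, had a ratio of 3.85. There H3K4me3 had 3 peaks, and the covered bases were 1348 bp for NPM1 and 1059 bp for H3K4me3.

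Of 26 inflammatory genes 19 carried both, with the NF-kappaB subunit gene Relb at 8.53 for NPM1 and 5.12 for H3K4me3. Ccl5, Ccl7 and Il1a had H3K4me3 only, Cxcl10 had the targets at opposite ends, and the cytokine genes Il6, Il12b and Il1b had neither. Of 14 interferon genes 9 carried both, with Stat2 at 7.04 for NPM1 and 7.02 for H3K4me3 and summits 1 bp apart. Oas1a and Ifit3 had H3K4me3 only, with folds of 6.36 and 3.45. Of 24 genes of the IL-4 response 13 carried both, among them Pparg, a nuclear receptor of lipid metabolism (6.28 for NPM1 and 5.91 for H3K4me3), the receptor gene Il4ra (3.73 for NPM1 and 4.55 for H3K4me3) and the transcription factor gene Stat6 (3.51 for NPM1 and 3.91 for H3K4me3). The effector genes Arg1, Retnla, Chil3 and Mrc1 had neither. Of 20 genes that mark resident or recruited cardiac macrophages 7 carried both, Spp1, Timd4 and Cd9 had H3K4me3 only, Cd163 had NPM1 only, and 9 had neither, among them Ccr2 and Lyve1.

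In the lists of genes of other cell types, the share with both was below the 44.2% of all genes. Both were found at 3 of 20 cardiomyocyte genes, 2 of 14 cardiac fibroblast genes, 4 of 13 endothelial genes, 1 of 12 neutrophil genes, 2 of 14 T and NK cell genes and 0 of 10 B cell genes. In the same order, 14, 9, 5, 5, 7 and 7 genes had neither, and the others had a peak of at least 1 target. The share with neither in the endothelial (38.5%) and neutrophil (41.7%) lists was near the 37.6% of all genes. Most peaks at genes of these cell types were weak. Ckm, the muscle creatine kinase, had folds of 3.91 for NPM1 and 3.22 for H3K4me3, and Flt1, an endothelial VEGF receptor, had the strongest H3K4me3 of the endothelial set, with 4.27 for NPM1 and 6.54 for H3K4me3. The neutrophil gene S100a8 had 5.21 for NPM1 and 3.83 for H3K4me3. Among the genes with neither were the cardiomyocyte genes Myh6, Tnnt2 and Ttn and the fibroblast genes Col1a2 and Pdgfra. The endothelial genes Pecam1 and Vwf and the B cell gene Cd79a also had neither. These are examples, and most endothelial and most neutrophil genes had a peak of at least 1 target. An exception among the weak peaks was Wt1, a transcription factor of the epicardium, with NPM1 only and a fold of 9.91. Of 20 genes of unrelated tissues such as testis, lens and liver, 2 carried both and 5 had NPM1 only, namely Prm1, Prm2, Tnp1, Apoa1 and Cryaa.

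Gene families gave the widest contrasts. Of 67 clustered histone genes 61 carried both, with a median width ratio of 1.21, and their closeness and likeness mean that ends share peaks and reads. Of 40 proteasome genes 36 carried both, and of 78 genes of mitochondrial ribosomal proteins 67 did, with the lowest median width ratio of any family at 0.632. Of 397 Zfp zinc finger genes 216 carried both and 94 (23.7%) had H3K4me3 only, against 11.9% of all genes. Hox genes were the reverse. Of 39, 7 carried both, 11 (28.2%) had NPM1 only and 1 had H3K4me3 only, against 5.33% with NPM1 only over all genes. Their NPM1 peaks were weak, with a highest fold of 4.22 among the ends with NPM1 only, at Hoxa9. Of 1110 olfactory receptor genes 1024 had neither, as did 342 of 353 vomeronasal receptor genes.

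Promoter sequence went with class, a property that the class rule does not use. In the 15752 start ends with a matching promoter, the median number of CG dinucleotides in 300 bases was 22 at ends with both, 5 at ends with NPM1 only, 17 at ends with H3K4me3 only and 3 at ends with neither. The share of promoters with both was 6.52% where there were fewer than 5 CG dinucleotides and 75.7% where there were 25 or more. Among start ends that had H3K4me3, NPM1 was found at 50.7% of the CG-poorest and at 85.4% of the CG-richest. This relation held within bands of H3K4me3 fold. Start ends were split into 3 bands of equal number. In the lowest band NPM1 was found at 48.9% of promoters with under 10 CG dinucleotides and at 64.7% of those with 20 or more. In the middle band these shares were 70.4% and 89.9%, and in the highest band 87.3% and 94.6%. The fold band made the larger difference.

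Short motifs were counted on both strands of the same 300 bases. The GC box GGGCGG, a match for Sp factors, was found in 69.7% of promoters with both, 29.4% with NPM1 only, 55.8% with H3K4me3 only and 19.7% with neither, against 46.7% of all promoters. The ETS match CCGGAAGT was found in 9.36% of promoters with both, 0.566% with NPM1 only, 7.32% with H3K4me3 only and 0.716% with neither, against 5.37% of all. The TATA box TATAAA went the other way, with 6.23% of promoters with both, 16.8% with NPM1 only, 10.2% with H3K4me3 only and 22.8% with neither, against 13.7% of all. The PU.1 match GAGGAAGT, named for a myeloid factor, was found in 3.16% of promoters with both, 3.96% with NPM1 only, 2.46% with H3K4me3 only and 3.40% with neither, against 3.20% of all. Its share differed little between classes. CG-containing motifs follow the CG content of the promoters, and a match is not a bound site. Of the printed promoters, Phf20, Kdm5b and Rpa3 hold the GC box, Tsc1 holds the YY1 match AAGATGGCG, and Hpgds holds the PU.1 match.

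The classes were then read in lists that the rule does not use. The IL-4 NPM1 list had a peak at 89.0% of ends with both, 41.3% of ends with NPM1 only, 27.0% of ends with H3K4me3 only and 6.59% of ends with neither, against 30.1% of all ends. Ends with NPM1 in cardiac macrophages after infarction were thus largely ends with NPM1 in IL-4-treated bone marrow-derived macrophages where H3K4me3 was also present. The sham NPM1 list, from a shallower library, had a peak at 8.24% of ends with both, 13.4% with NPM1 only, 8.53% with H3K4me3 only and 4.12% with neither, against 6.01% of all ends. Here the ends with NPM1 only had the highest share. The untreated NPM1 list, also shallow, had a peak at 7.40% of ends with both, 4.45% with NPM1 only, 3.31% with H3K4me3 only and 2.23% with neither, against 3.69% of all ends. The knockout H3K4me3 list had a peak at 95.3% of ends with both, 33.8% with NPM1 only, 70.0% with H3K4me3 only and 8.66% with neither, against 36.1% of all ends. Its share at ends with NPM1 only was near that of all ends.

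The knockout library covered more of the window in both classes that carry H3K4me3. At the 7451 start ends with both targets, of which 137 had no knockout peak and counted as 0 bp there, the median covered length was 1332 bp in knockout and 886 bp in WT infarct macrophages. At the 2050 start ends with H3K4me3 only in WT, of which 304 had no knockout peak, it was 1066 bp in knockout and 453 bp in WT. The median difference, knockout minus WT, was 413 bp at ends with both and 434.5 bp at ends with H3K4me3 only. With the ends that lack a knockout peak left out, which favours the knockout list, these differences were 420 bp and 519 bp. Knockout peaks covered more bases at 95.9% of ends with both and at 82.1% of ends with H3K4me3 only. These are 2 libraries of different enrichment, and whether the difference belongs to the genotype was not tested.

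Away from gene ends a smaller share of peaks was common to the 2 lists. Over the genome 31055 NPM1 peaks (38.9%) overlapped an H3K4me3 peak, and 31671 H3K4me3 peaks (43.2%) overlapped an NPM1 peak. Within 1 kb of a gene end lay 14218 H3K4me3 peaks (19.4% of that list) and 11390 NPM1 peaks (14.3%), so most peaks of either list lay elsewhere. Of these 11390 NPM1 peaks, 77.9% were shared. Of the 35714 inside genes 32.9% were shared, as were 31.5% of the 20489 outside genes but within 50 kb and 32.2% of the 12300 further away. Among peaks with a −log10 q of 5 or more these shares were 97.5%, 78.5%, 73.2% and 79.2%. Strong NPM1 peaks far from any gene end therefore still mostly coincided with listed H3K4me3 peaks. How specific the H3K4me3 peaks away from gene ends are to that mark was not tested. For comparison, 51.1% of infarct NPM1 peaks overlapped one of the IL-4 NPM1 list and 20.4% one of the sham NPM1 list. Of the WT infarct H3K4me3 peaks, 46.3% overlapped a peak of the deeper IL-4 NPM1 list and 22.7% one of the shallower sham NPM1 list.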

How the data were processed

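NPM1 and H3K4me3 were each mapped by CUT&Tag in 1 library of WT infarct cardiac macrophages, with a commercial kit per the labels' protocols. Per the submitters' processing notes, the tools were Bowtie2, MACS2 2.2.7.1, deepTools and bcl2fastq 2.17, with build mm10. For their roles and settings, duplicate reads, controls and spike-in, nothing is stated in the sources used here. The authors deposited 1 peak list per library, giving each peak a summit, a fold enrichment (a ratio), a score, and its p and q as −log10. Within 1, the deposited score was 10 times the −log10 p, and the deposited summit is a distance in bases from the start of the peak, of no listed unit. Depth was read from the fold and −log10 p at summits, from which a whole-number pileup and its background follow.

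Genes and their outermost ends came from the RefSeq gene table of GRCm38.p6, the assembly of mm10. Strands came from the RefSeq promoter table, which matched 17492 of the 21887 genes, and 15752 start ends had a promoter there. Exons, introns and UTRs were not told apart, and promoters inside a gene's extent are missed. Where several peaks touched a window, the one with the highest fold gave summit and width. The members and gene lists were chosen with earlier results of these data known. Named genes are Npm1, Kdm5b, Tsc1, Tsc2 and Mtor; the 10 genes with both that rank best in the worse of their 2 lists by −log10 q; the 8 strongest of each single class with no peak of the other target within 5 kb; the 4 extremes of offset and of width ratio with a −log10 q of 5 or more in both lists; and up to 4 members per class of a list. Predicted genes, olfactory and vomeronasal receptors and genes whose peak an earlier named gene had already used were passed over. The code was tested on simulated peaks. Python 3.11.15, numpy 2.4.6, pandas 2.3.3, scipy 1.17.1 and matplotlib 3.10.9 were used. Alternatives were stricter peaks, equal list lengths, other windows, summits in the window, stitched peaks, autosomes, start ends, the peak of highest −log10 q and stricter overlaps. Annotated starts of the promoter table and the removal of ends with a sham or untreated NPM1 peak were added after the data were seen.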

Additional observations from a re-analysis of the deposited data

How the results depend on the processing

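Of 83 alternative values for 7 results, 43 stayed within their tolerance. This was 1.5 times for a count of ends and the 95% interval of the main value for the others. The interval treats the ends or peaks of this pair of libraries as independent, so it does not measure a spread between replicates. The median width ratio kept NPM1 the narrower under every alternative. Ends with both numbered 5922 with a −log10 q of 5 or more and 5363 with a fold of 4 or more. Ends with NPM1 only numbered 540 with a −log10 q of 5 or more, 693 with a fold of 4 or more, 1602 with the 50000 best peaks of each list, 4037 with a 2500 bp window, 642 at start ends only and 823 at annotated starts, and ends with H3K4me3 only numbered 2050 at start ends only. The number of ends with NPM1 only is thus the count that depends most on the threshold and the choice of ends. The median distance between summits was 106 bp with q of 0.05 or less and with summits in the window, 93 bp with a −log10 q of 5 or more, 91 bp with a fold of 4 or more, 104 bp with the 50000 best peaks and with a 500 bp window, and 128 bp with a 2500 bp window. The median width ratio was 0.869 with a −log10 q of 5 or more, 0.854 with a fold of 4 or more, 0.819 with a 500 bp window, 0.860 with a 2500 bp window, 0.749 with stitched peaks, 0.811 at start ends, 0.816 at annotated starts and 0.815 without ends that have a sham or untreated NPM1 peak. The share of NPM1 summits inside an H3K4me3 peak was 94.0% with q of 0.05 or less, 97.7% with a −log10 q of 5 or more, 97.9% with a fold of 4 or more, 95% with the 50000 best peaks, 94.8% with a 500 bp window, 83.3% with a 2500 bp window, 92.7% with summits in the window, 92.5% with stitched peaks, 94.2% at start ends and 94.3% at annotated starts. The share of NPM1 peaks that overlap an H3K4me3 peak was 44.5% with q of 0.05 or less, 62.5% with a −log10 q of 5 or more, 62.4% with a fold of 4 or more, 44.1% with the 50000 best peaks, 36.1% with overlap of 50% of the shorter peak and 26.9% with reciprocal overlap of 50%. The cause of these shifts was not tested.

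No paired analysis was possible because each group is 1 library and the labels carry no replicate numbers. A replicate could not be left out for the same reason. The sham and untreated NPM1 lists come from libraries with lower background pileup, so an absent peak there says less than in the other lists. Gene ends are outermost annotated ends, which miss inner promoters. Ends of neighbouring genes can share a peak: the 10501 ends with both hold 8781 distinct NPM1 peaks and 8783 distinct H3K4me3 peaks.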

Other observations

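Start ends with another gene's end within 1 kb carried both targets at 74.7% of 2668, against 36.8% of the 14824 without such a neighbour. The median offset was 107 bp with a neighbour and 108 bp without, and the median NPM1 width was 676 bp with and 591 bp without.

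Among chromosomes, the share of ends with both was 9.11% on X and 1.95% on Y, against 19.7% to 30.8% on the autosomes. NPM1 only was at 0.880% of the X-linked ends and at 5.65% of all ends, and H3K4me3 only at 6.88% of the X-linked ends and at 8.49% of all ends. The X chromosome had 840 NPM1 peaks and 816 H3K4me3 peaks in all. The difference between X and the autosomes was not tested.

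Chromosome 9 had 5333 NPM1 peaks and 3876 H3K4me3 peaks, a wider gap than on any other chromosome. H3K4me3 only was at 6.41% of its ends, the lowest share among autosomes, and NPM1 only at 7.04%. The cause was not tested.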
